A study of Mus musculus with 8 samples.

Results

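A set of 9 genes that act beside the TCF/LEF transcription factors were followed across 4 groups of mouse embryonic stem cells: Ctnnb1, which encodes beta-catenin, the TLE corepressor genes Tle1, Tle2, Tle3 and Tle4, and the coactivator genes Bcl9, Bcl9l, Pygo1 and Pygo2. They were chosen by name, and each was found once among the 47729 gene identifiers of the count files. RNA had been sequenced from E14TG2a cells, an established line of strain 129/Ola, after 48 h in medium with 15% serum and LIF, with n = 2 libraries in each group. WT is the parental line, and its libraries are labelled as biological replicates with no clone named. QKO cells carry knockouts of TCF7, TCF7L1, TCF7L2 and LEF1, and were described as lacking all the full-length factors. QT7 and QT7L1 are, by their titles, QKO cells with 1 copy of TCF7 or of TCF7L1 put back. Their genotype tags name the opposite factor: TCF7L1(+/-) beside knockouts of TCF7, TCF7L2 and LEF1 in QT7, and TCF7(+/-) beside knockouts of TCF7L1, TCF7L2 and LEF1 in QT7L1. The titles are followed here. The libraries of QKO, QT7 and QT7L1 came from a clone A and a clone B, so a difference between groups can also hold differences between clones, and these cannot be told apart.

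Beta-catenin is both a part of cell junctions, where it binds cadherins, and the effector of Wnt signalling. Without a Wnt signal a cytoplasmic destruction complex marks it for degradation, and with one it accumulates, enters the nucleus and binds TCF/LEF factors on DNA. TLE proteins, the mammalian relatives of Drosophila Groucho, bind TCF/LEF factors as corepressors when beta-catenin is absent. BCL9 and BCL9L bind beta-catenin and link it to the Pygopus proteins, which carry a PHD finger that reads methylated histone H3, and together they help activate target genes. Beta-catenin is regulated mainly at the protein level, and the values here are transcript counts only.

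Libraries held 31573536 to 43362627 counts, and 16515 genes passed the low-count filter, all 9 cofactor genes among them. Levels are TMM-scaled CPM, a gene's counts relative to the size of its library, and differences are log2 fold changes from edgeR's quasi-likelihood test fitted to all 8 libraries, called where the Benjamini-Hochberg adjusted p over all genes was under 0.05. The 10 embryonic stem cell markers summed to 6393 to 7562 CPM, and each was counted in every library. The targeted genes were still counted: Tcf7 fell from 59.6 and 61.9 CPM in WT to 7.97 and 19.7 CPM in QKO, Tcf7l1 from 73.6 and 68.8 CPM to 38.3 and 39.1 CPM and Lef1 from 6.57 and 2.4 CPM to 0.900 and 0.804 CPM (edgeR adjusted p = 0.00685, 0.00381 and 0.00596), while Tcf7l2 was at 8.14 and 6.53 CPM in WT and 7.32 and 7.40 CPM in QKO. Counts over a whole gene do not show whether the transcript is full length. Against QKO, neither factor was called higher in the line whose title names it. Tcf7 in QT7 stood at 0.44 ± 0.36 (SE, edgeR adjusted p = 0.41), with overlapping libraries. Tcf7l1 in QT7L1 stood at -0.26 ± 0.15 (edgeR adjusted p = 0.217), with both libraries below those of QKO. Tcf7l1 was called lower in QT7 than in QKO (-0.64 ± 0.15, edgeR adjusted p = 0.0137). Lef1 was called lower in QT7L1 than in QKO (-1.98 ± 0.58, edgeR adjusted p = 0.0286), with 7 counts in each QT7L1 library. Lef1 was at 1.33 and 0.92 CPM in QT7 and 0.212 and 0.213 CPM in QT7L1. That difference (2.38 ± 0.57) was not called by edgeR (adjusted p = 0.19), but was by DESeq2 (adjusted p = 0.0256) and by edgeR without a low-count filter (adjusted p = 1.04e-05). Between QT7 and QT7L1 neither Tcf7 (0.72 ± 0.37, SE, adjusted p = 0.509) nor Tcf7l1 (-0.37 ± 0.15, adjusted p = 0.42) was called by edgeR. Tcf7 was at 16.6 and 20.9 CPM in QT7 and 10.1 and 12.7 CPM in QT7L1, and Tcf7l1 at 27.4 and 22.4 CPM in QT7 and 36.9 and 27.5 CPM in QT7L1. For both genes the libraries did not overlap, as in 40.8% of all tested genes, and the higher line was the one whose title names the factor. The nearest Tcf7l1 libraries stood at 27.4 CPM (QT7) and 27.5 CPM (QT7L1). Among the alternatives run, the Tcf7 difference was called only without a low-count filter (0.73, edgeR adjusted p = 0.00129). That setting called 1030 genes between these 2 lines, against 1 in the main fit. The Tcf7 call in QKO ended without WT replicate 2 (adjusted p = 0.0526) and that of Lef1 without QKO replicate 2 (adjusted p = 0.062). QT7 replicates differed most from each other (chi-square per degree of freedom 55.7, against 17.4 to 21.7 in the other groups).

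Of the 9 genes, 2 were called in at least 1 of the 6 comparisons, Tle4 and Pygo1, and 7 were called in none. Tle4 was lower in both rescued lines than in WT and in QKO, and Pygo1 was lower in QKO than in WT, QT7 and QT7L1. Between QKO and WT 1 of 9 was called, when 26.4% of all tested genes were. The median absolute log2 fold change of the 9 was 0.15 there, against 0.36 over all genes tested. Between QT7 and QKO 2 of 9 were called (26.9% of all genes), and between QT7L1 and QKO 2 of 9 (29.7%). Their median absolute log2 fold changes were 0.19 and 0.27, against 0.37 and 0.39 over all genes. Between QT7 and WT 1 of 9 was called (4.62% of all genes), as was 1 of 9 between QT7L1 and WT (0.745%). Between QT7 and QT7L1 edgeR called 0 of 9 (0.00606% of all genes), with 1 of 9 at an unadjusted p under 0.05 and 0 of 9 called by DESeq2. The 2 groups' libraries did not overlap for 6 of 9 genes between QKO and WT (69.4% of all tested genes), 6 of 9 between QT7 and QKO (63.2%), 6 of 9 between QT7L1 and QKO (71%), 5 of 9 between QT7 and QT7L1 (40.8%), 4 of 9 between QT7 and WT (47.6%) and 5 of 9 between QT7L1 and WT (50.7%). These shares lie near those of all genes. The comparisons share libraries and are therefore not independent of each other.

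**Figure D1:**
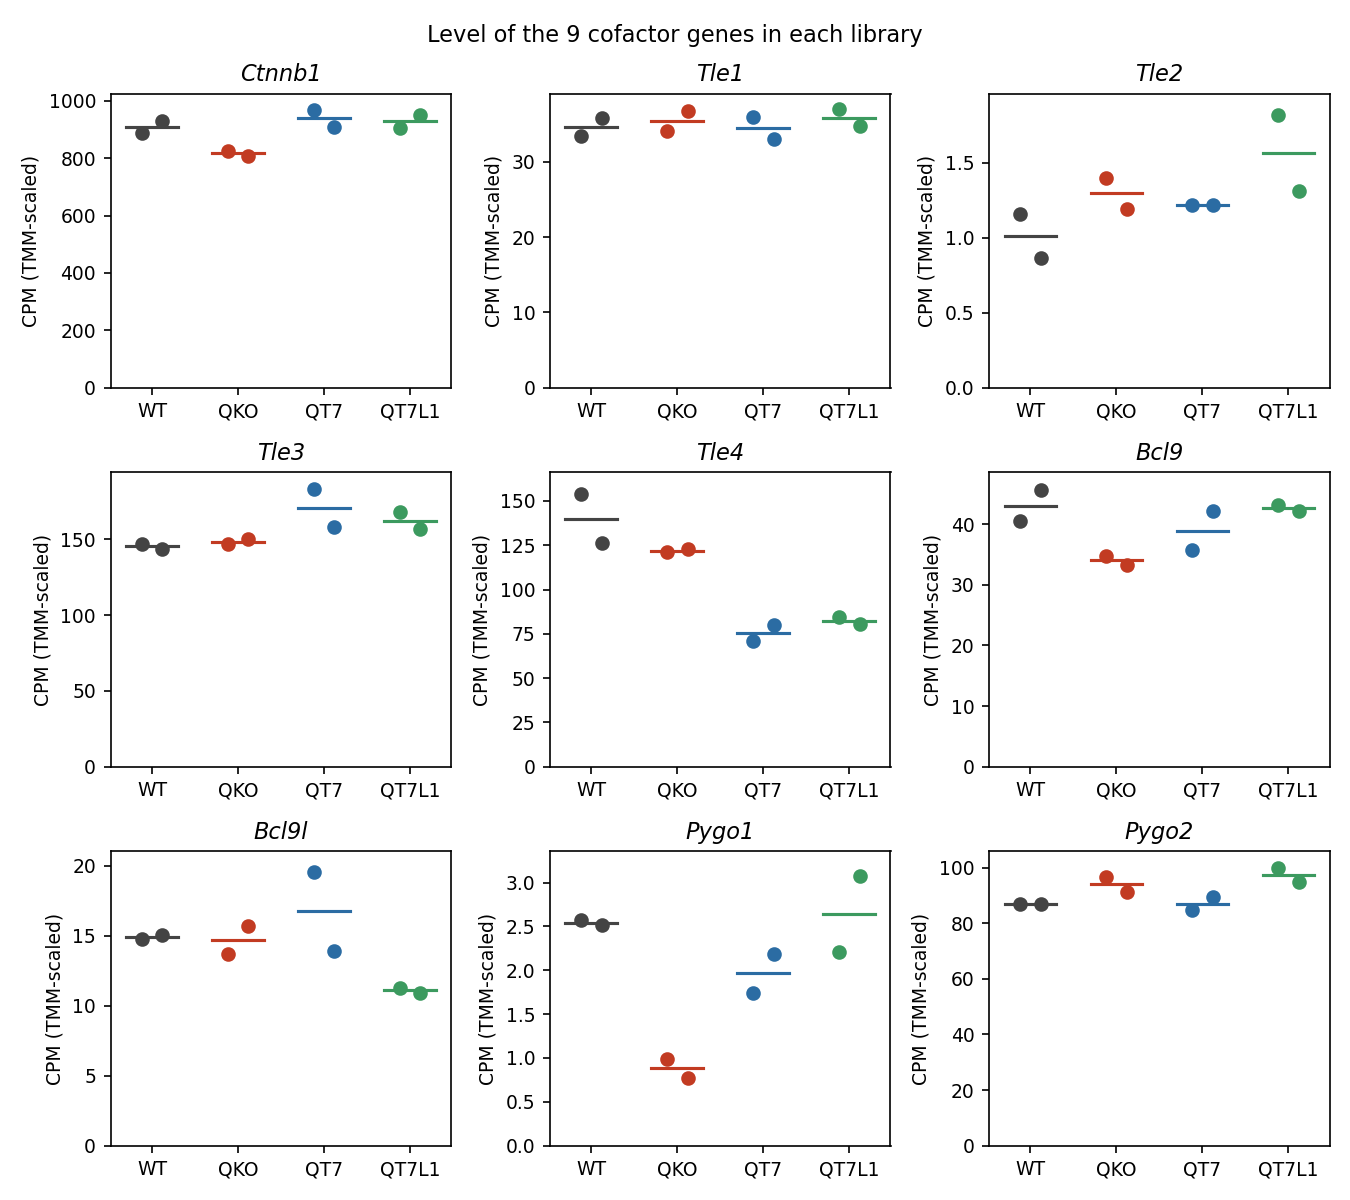
Level of each of the 9 genes in CPM (vertical axes, linear and starting at 0) in the 4 groups; points are the 2 libraries of a group, replicate 1 on the left, and bars are their mean. Tle4 sits at 70.8 to 84.5 CPM in QT7 and QT7L1 and at 121 to 154 CPM in WT and QKO, and Pygo1 is lowest in the 2 QKO libraries.

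Per kilobase of exon, beta-catenin was by far the most abundant of the 9, with a mean over the 8 libraries of 173 CPM per kb. Pygo2 followed at 25.2, Tle4 at 18.4, Tle3 at 13.5, Bcl9 at 4.69, Tle1 at 4.03, Bcl9l at 1.8, Pygo1 at 0.254 and Tle2 at 0.205 CPM per kb. These levels divide by the union of annotated exons, from 3.63 kb for Pygo2 to 11.65 kb for Tle3, and not by the transcripts the cells use. Between the lowest and the highest of the 8 libraries, the level varied 1.12-fold for Tle1, 1.18-fold for Pygo2, 1.20-fold for Ctnnb1, 1.27-fold for Tle3, 1.37-fold for Bcl9, 1.79-fold for Bcl9l, 2.11-fold for Tle2, 2.17-fold for Tle4 and 3.96-fold for Pygo1.

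Ctnnb1 (ENSMUSG00000006932, chromosome 9, 120929216 to 120960507 on the plus strand, GRCm38) had levels of 889 and 929 CPM in WT, 827 and 808 CPM in QKO, 969 and 909 CPM in QT7 and 905 and 952 CPM in QT7L1. Both QKO libraries were the lowest of the 8, while the other 3 groups overlapped. With 26650 to 40965 counts a library, counting error is small beside the spread between libraries. QKO was at 0.90 times the WT level (log2 -0.15 ± 0.09, SE, unadjusted 95% interval -0.34 to 0.04), and the difference was not called (edgeR adjusted p = 0.21). QT7 was higher than QKO by 0.20 ± 0.09 (interval 0.01 to 0.39, adjusted p = 0.107) and QT7L1 by 0.18 ± 0.09 (interval -0.01 to 0.37, adjusted p = 0.129), again not called by edgeR. Against WT the rescued lines lay at 0.05 ± 0.09 (QT7) and 0.03 ± 0.09 (QT7L1). In 21.5% of all tested genes both QKO libraries were below the other 6, as they were for Ctnnb1. Ulk4, which overlaps Ctnnb1, was at 0.944 to 2.36 CPM, and the other 2 overlapping genes had no counts.

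Tle4 (ENSMUSG00000024642, chromosome 19, 14448150 to 14598051 on the minus strand) encodes a TLE corepressor and, among Tle1 to Tle4, had the highest level per kilobase in WT and QKO. It was at 154 and 126 CPM in WT, 121 and 123 CPM in QKO, 70.8 and 79.9 CPM in QT7 and 84.5 and 80.5 CPM in QT7L1. All 4 libraries of the rescued lines lay below all 4 of WT and QKO, with no overlap, an order found in 5.42% of all tested genes. Group means were 139.9 ± 19.5 CPM (SD, n = 2) for WT, 122 ± 1.82 for QKO, 75.4 ± 6.42 for QT7 and 82.5 ± 2.77 for QT7L1.

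Loss of the 4 factors alone was not accompanied by a called change in Tle4: QKO stood at -0.20 ± 0.11 (SE) against WT (edgeR adjusted p = 0.224). Against QKO, Tle4 fell by 0.69 in QT7 (SE 0.12, a 1.62-fold lower level, edgeR adjusted p = 0.00274) and by 0.56 in QT7L1 (SE 0.12, 1.48-fold lower, adjusted p = 0.00615). Against WT it fell by 0.89 in QT7 (SE 0.12, 1.86-fold lower, adjusted p = 0.00472) and by 0.76 in QT7L1 (SE 0.12, 1.70-fold lower, adjusted p = 0.0221). Of the 16515 genes, 18 (0.109%) were called lower in all 4 of these comparisons. The rescued lines did not differ from each other in Tle4 by a called amount (-0.13 ± 0.12, interval -0.38 to 0.12, adjusted p = 0.696). The call in QT7 against QKO and in QT7 against WT held with each of the 8 libraries left out (edgeR adjusted p up to 0.03 and 0.0496). That in QT7L1 against QKO ended without QT7L1 replicate 2 (adjusted p = 0.06). In QT7L1 against WT it ended without WT replicate 1 (0.179), QT7L1 replicate 1 (0.153) or QT7L1 replicate 2 (adjusted p = 0.22). In the authors' deposited tables Tle4 had an adjusted p under 0.05 in the same 4 comparisons, with log2 fold changes of 0.68 (QKO over QT7), 0.55 (QKO over QT7L1), 0.86 (WT over QT7) and 0.73 (WT over QT7L1).

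Markers of other cells varied between libraries, and the neuroectoderm sum, like Tle4, was lower in the rescued lines than in WT and QKO. Within the rescued lines, QT7 replicate 1 had the lowest Tle4 level and the highest sum. The 6 neuroectoderm markers summed to 143 to 214 CPM in the WT and QKO libraries. In the QT7 and QT7L1 libraries the sum was 95.7 to 127 CPM. Nes, the nestin gene among them, was at 25.8 to 54.6 CPM in WT and QKO and 9.54 to 15.5 CPM in the rescued lines. With Nes taken out, the sums of the remaining markers overlapped between these sets of libraries, so the separation rests on Nes. None of the 6 was at 0 in any library. The part of the neuroectoderm markers in the Tle4 result was not tested. The 15 fibroblast markers summed to 71.7 to 219.5 CPM in WT and QKO and 63.6 to 115 CPM in the rescued lines, with Lum at 0 in every library. Primitive endoderm markers summed to 226 to 584 CPM and trophoblast markers to 62.0 to 114 CPM over the 8 libraries. The part of these markers was not tested either. In bulk samples, fewer cells that express a gene and less RNA per cell cannot be told apart.

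The sequence just before the Tle4 start is shown because Tle4 was lower in every library of the lines with a factor put back, and TCF/LEF factors bind the core CTTTGAT. Its variants CTTTGAA (likewise searched), CTTTGTT (also searched) and the last core searched, CTTTGTA, were looked for as well. It is the 250 bases upstream of the distal of 2 RefSeq starts (GRCm38.p6, chr19:14598184-14598433, minus strand), 5′ to 3′, and the capitals mark ACGTG, the core bound by hypoxia-inducible factors and searched as a second motif, read on either strand.
Tle4: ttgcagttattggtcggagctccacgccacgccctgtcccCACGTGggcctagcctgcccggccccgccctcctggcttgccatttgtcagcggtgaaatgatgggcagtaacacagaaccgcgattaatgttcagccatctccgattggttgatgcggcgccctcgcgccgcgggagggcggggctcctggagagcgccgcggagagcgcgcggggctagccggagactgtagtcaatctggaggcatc
None of the 4 TCF/LEF cores was found on either strand of it, nor in any of the 12 such windows found for 8 of the 9 genes, and 14.8% of all 32851 promoter windows of this length hold at least 1. The capitals read CACGTG, in which ACGTG is found once on each strand, and the window of the other start holds none. ACGTG was in 16.6% of all windows and in those of Tle1, Tle3, Tle4 and Pygo1. A match is only a description of the letters, and these windows do not cover distant enhancers.

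Tle3 (ENSMUSG00000032280, chromosome 9, 61372366 to 61418497, plus strand), the second most abundant of Tle1 to Tle4 per kilobase in WT and QKO, was at 147 and 144 CPM in WT, 147 and 150.2 CPM in QKO, 183 and 158 CPM in QT7 and 168 and 157 CPM in QT7L1. The 4 libraries of the rescued lines were thus the highest, opposite to Tle4, but no comparison was called. The share of all tested genes with this order was not computed. The largest difference was QT7 against WT, at 0.23 ± 0.10 (interval 0.01 to 0.45, edgeR adjusted p = 0.222). QT7L1 stood at 0.16 ± 0.10 against WT (edgeR adjusted p = 0.479), and QKO at 0.03 ± 0.10 (adjusted p = 0.849).

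Tle1 (ENSMUSG00000008305, chromosome 4, 72117142 to 72200919, minus strand) was the steadiest of the 9 genes. It was at 33.4 and 35.8 CPM in WT, 34.1 and 36.7 CPM in QKO, 35.9 and 33.0 CPM in QT7 and 37.0 and 34.7 CPM in QT7L1. All groups overlapped, no difference exceeded 0.06 on the log2 scale, and the intervals of the 6 comparisons ran from -0.32 at the lowest to 0.31 at the highest. Tle2 (ENSMUSG00000034771, chromosome 10, 81574561 to 81590845, plus strand) was barely expressed, with 37 to 60 counts a library. Its level was 1.16 and 0.862 CPM in WT, 1.40 and 1.19 CPM in QKO, 1.22 and 1.22 CPM in QT7 and 1.82 and 1.31 CPM in QT7L1. WT libraries were the lowest, but the largest difference, QT7L1 against WT (0.64 ± 0.33, interval -0.10 to 1.37, edgeR adjusted p = 0.395), was not called, and its interval is wide.

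Together these values describe a pool of Tle1 to Tle4 whose make-up differed between lines. The TLE relatives Aes and Tle6, taken up below, were left out of it. Aes was at 148 and 194 CPM in WT, 315 and 220.5 CPM in QKO, 195 and 255 CPM in QT7 and 261 and 262 CPM in QT7L1. The sums, shares and ratios here hold only for the 4 genes. Per kilobase, the 4 TLE genes summed to 43.6 and 38.7 CPM in WT. The QKO sums were 37.9 and 38.9 CPM, those of QT7 32.5 and 31.6 CPM and those of QT7L1 33.8 and 31.8 CPM. Tle4 made up 61.8 and 57.1% of the sum in WT and 55.8 and 55.5% in QKO. In QT7 its share was 38.3 and 44.4%, and in QT7L1 43.9 and 44.4%. The ratio of Tle3 to Tle4 per kilobase was 0.468 to 0.597 in the WT and QKO libraries. In the rescued lines it was 0.956 to 1.27, so the 2 genes were then about equal on this scale. Ratio and shares depend on the exon unions used, 11.65 kb for Tle3 and 5.7 kb for Tle4. In CPM, Tle3 was at 144 to 150.2 and Tle4 at 121 to 154 in WT and QKO. In the rescued lines Tle3 was at 157 to 183 CPM and Tle4 at 70.8 to 84.5 CPM. Tle1 made up 8.79 to 12.7% and Tle2 0.357 to 0.865% of the sum. The ratio of Ctnnb1 to the TLE sum was 3.93 to 4.62 in WT and QKO and 5.16 to 5.76 in QT7 and QT7L1. Sums and shares follow from the same counts as the Tle4 result and were not tested apart from it.

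**Figure D2:**
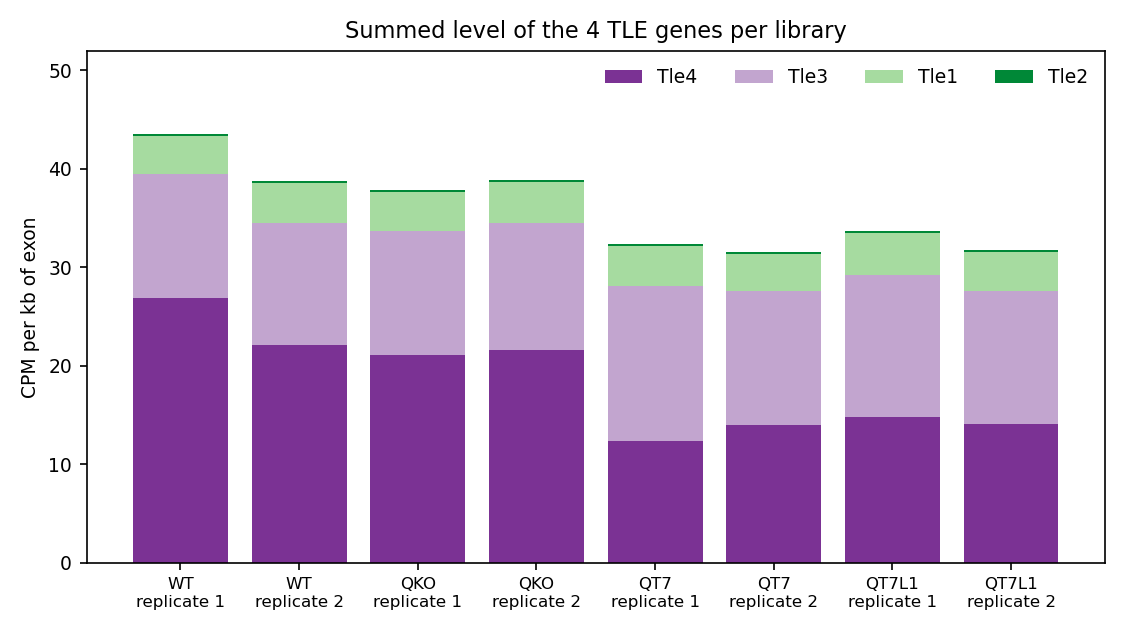
Summed level of Tle1 to Tle4 in each library in CPM per kb of exon (vertical axis, starting at 0), stacked by gene. The sum runs from 37.9 to 43.6 in WT and QKO and from 31.6 to 33.8 in QT7 and QT7L1, and the Tle4 part is smaller in every library of the latter.

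Bcl9 (ENSMUSG00000038256, chromosome 3, 97203662 to 97297917, minus strand), whose product bridges beta-catenin and Pygopus, was at 40.5 and 45.6 CPM in WT, 34.8 and 33.3 CPM in QKO, 35.7 and 42.1 CPM in QT7 and 43.2 and 42.1 CPM in QT7L1. As for Ctnnb1, both QKO libraries were the lowest of the 8, though QT7 replicate 1 lay only just above them. QKO stood at -0.34 ± 0.12 against WT (interval -0.61 to -0.07, edgeR adjusted p = 0.0653), and QT7L1 at 0.33 ± 0.12 against QKO (interval 0.05 to 0.60, adjusted p = 0.0703), so neither was called. Both were called when only the compared groups entered the fit (edgeR adjusted p = 0.0438 and 0.0371). They were also called when either QT7 library, which is part of neither comparison, was left out (log2 -0.34 and 0.33). With any other single library left out, neither was called. Over all left-out libraries the differences ran from -0.42 to -0.25 and from 0.30 to 0.36. QT7 against QKO was at 0.19 ± 0.12 (edgeR adjusted p = 0.271). Across all settings run, the QKO against WT difference of Bcl9 kept its sign.

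Bcl9l (ENSMUSG00000063382, chromosome 9, 44482825 to 44511896, plus strand), the paralogue of Bcl9, was at 14.8 and 15.1 CPM in WT, 13.7 and 15.7 CPM in QKO, 19.6 and 13.9 CPM in QT7 and 11.3 and 10.9 CPM in QT7L1. Both QT7L1 libraries lay below the other 6, an order found in 5.72% of all tested genes, and QT7 replicate 1 stood alone at the top. QT7 was higher than QT7L1 by 0.59 ± 0.19 (interval 0.18 to 1.00), which edgeR did not call over all genes (adjusted p = 0.308, unadjusted p = 0.00943). The difference was 0.33 without QT7 replicate 1, and was called only without QT7 replicate 2 (0.81, edgeR adjusted p = 0.017), which leaves the higher QT7 library alone. QT7L1 against WT (-0.43 ± 0.19, edgeR adjusted p = 0.31) and against QKO (-0.40 ± 0.19, adjusted p = 0.128) were not called either. Per kilobase, Bcl9 exceeded Bcl9l 1.72-fold to 3.65-fold, with the 2 highest ratios, 3.61 and 3.65, in QT7L1.

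Pygo1 (ENSMUSG00000034910, chromosome 9, 72925645 to 72952181, plus strand) was the only one of the 9 genes called between QKO and WT. It was at 2.57 and 2.52 CPM in WT, 0.993 and 0.776 CPM in QKO, 1.74 and 2.19 CPM in QT7 and 2.21 and 3.08 CPM in QT7L1. These levels rest on few reads, 82 and 111 counts in the WT libraries, 32 and 28 counts for QKO, 68 and 95 counts for QT7 and 73 and 101 counts for QT7L1. Both QKO libraries lay below all 6 others. Pygo1 fell by 1.52 in QKO against WT (SE 0.31, a 2.87-fold lower level, edgeR adjusted p = 0.00725). It rose by 1.15 in QT7 against QKO (SE 0.31, 2.22-fold, adjusted p = 0.0224) and by 1.58 in QT7L1 against QKO (SE 0.31, 2.99-fold, adjusted p = 0.00545). Against WT, QT7 stood at -0.37 ± 0.29 (interval -1.02 to 0.28, edgeR adjusted p = 0.536) and QT7L1 at 0.06 ± 0.29 (interval -0.59 to 0.70, adjusted p = 0.952). A fall in QKO with a rise in both rescued lines was called in 1353 of the 16515 genes (8.19%). As these comparisons share the QKO libraries, a low value there alone gives all 3.

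The Pygo1 calls depended on single libraries. The call in QKO against WT ended without QKO replicate 2 (edgeR adjusted p = 0.0735). In QT7 against QKO it ended without either QKO library (0.0634 for replicate 1, 0.157 for replicate 2), without replicate 2 of QT7 (adjusted p = 0.0714), and when only the compared groups were fitted (0.0646). In QT7L1 against QKO it ended without QKO replicate 2 (adjusted p = 0.0589) or QT7L1 replicate 2 (0.0545). In the authors' deposited tables the log2 fold change of Pygo1 was 1.01 (WT over QKO, adjusted p = 0.00607) and -1.05 (QKO over QT7L1, adjusted p = 0.00354), while QKO over QT7 missed the threshold (-0.73, adjusted p = 0.0693).

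The start of Pygo1 is shown because Pygo1 was lowest in both libraries of the line without the factors. The window (GRCm38.p6, chr9:72925395-72925644, plus strand) is 84.0% G and C, against 65.2% in that of Tle4, and capitals again mark ACGTG read on either strand, here as CACGT.
Pygo1: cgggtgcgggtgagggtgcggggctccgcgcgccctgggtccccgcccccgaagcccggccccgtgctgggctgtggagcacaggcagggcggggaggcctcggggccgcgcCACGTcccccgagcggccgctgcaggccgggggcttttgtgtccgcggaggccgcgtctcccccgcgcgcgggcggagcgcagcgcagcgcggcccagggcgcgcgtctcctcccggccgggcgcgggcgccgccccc
No TCF/LEF core was found in it.

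Pygo2 (ENSMUSG00000047824, chromosome 3, 89430214 to 89435128, plus strand) made up nearly all Pygopus transcript, 98.5 to 99.6% of the family's sum per kilobase in every library. It was at 86.8 and 86.9 CPM in WT, 96.7 and 91.4 CPM in QKO, 84.7 and 89.4 CPM in QT7 and 100 and 94.7 CPM in QT7L1. QKO and QT7L1 were each slightly above WT, by 0.12 ± 0.09 and 0.17 ± 0.09 (edgeR adjusted p = 0.388 and 0.428), and QT7 stood at 0.00 ± 0.09. No difference was called. Because Pygo2 was 67.2 to 257 times as abundant as Pygo1 per kilobase, the Pygopus sum was close to the Pygo2 level, 25.3 to 26.8 CPM per kb in QKO and 23.5 to 27.8 elsewhere.

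**Figure D3:**
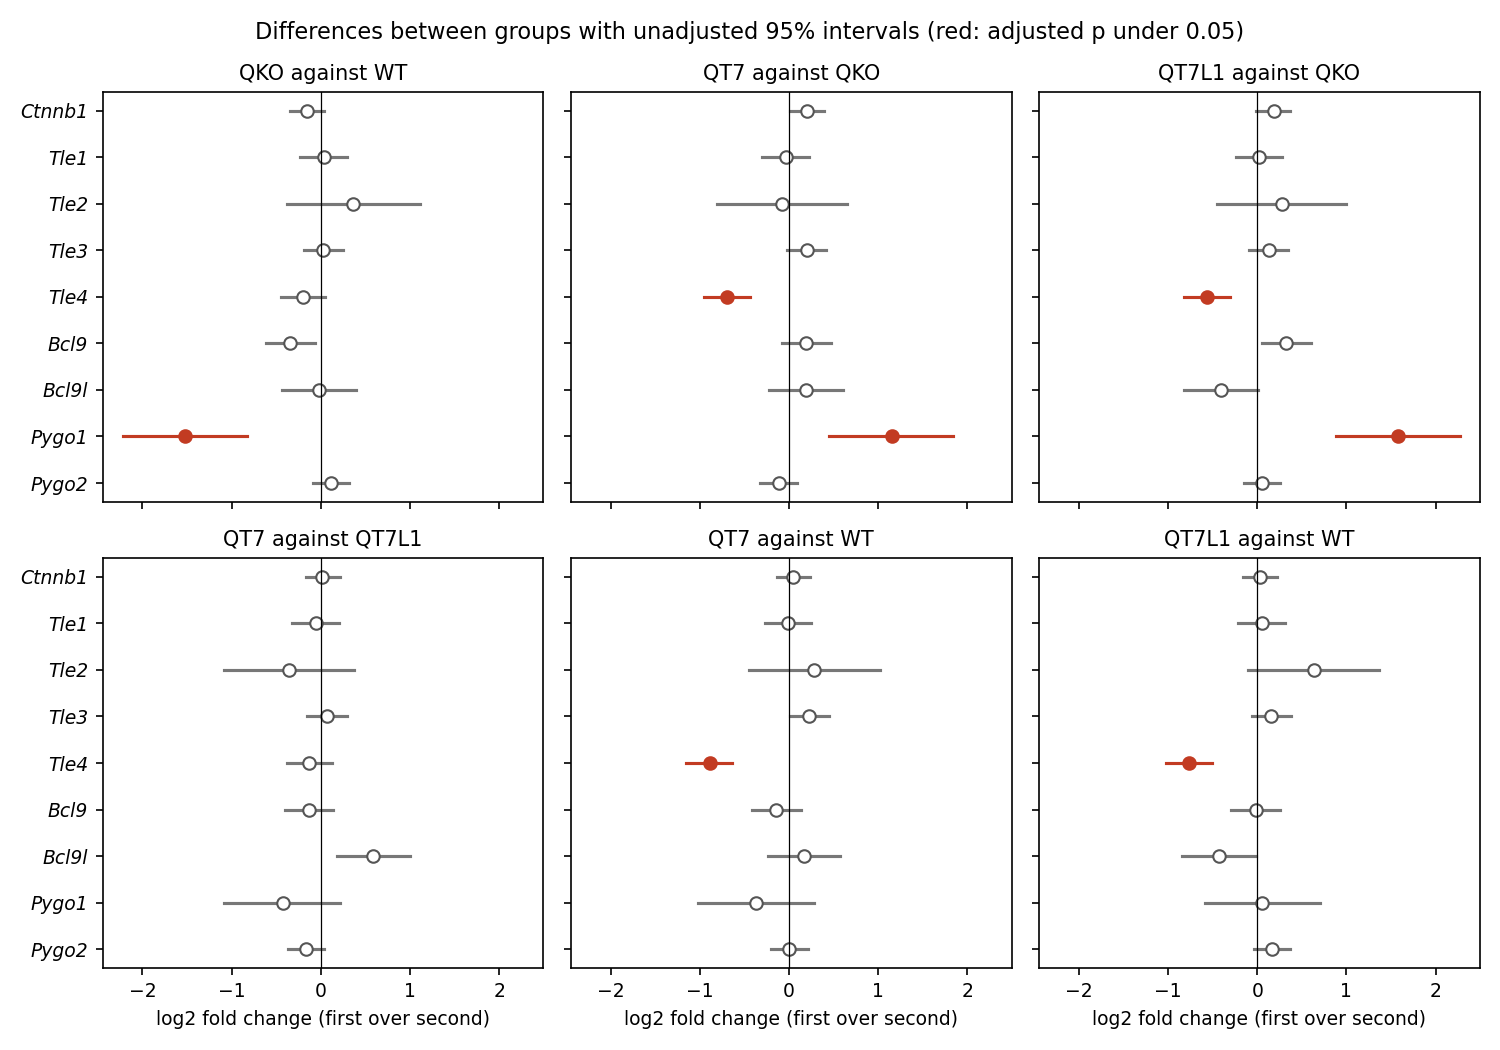
Log2 fold change of each gene in the 6 comparisons (horizontal axes, first group over second), with unadjusted 95% intervals as lines. Red marks the 7 of 54 differences called at an adjusted p under 0.05, which are those of Tle4 and Pygo1.

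The wider pathway was described through further genes in 4 lists. Their shares called are to be read against those of all tested genes, 26.4% in QKO against WT, 26.9% in QT7 against QKO and 29.7% in QT7L1 against QKO. Of 19 genes of the destruction complex and the steps above it, 2 rose, 2 fell and 15 did not pass in QKO against WT, with a median of -0.036 against -0.005 over all genes. The count of 4 called fell to 0 without WT replicate 2 or QKO replicate 2, and to 2 without QKO replicate 1. Axin2, a scaffold of that complex and itself a Wnt target, rose by 1.31 ± 0.24 (edgeR adjusted p = 0.00617), and Apc2, a relative of the scaffold gene Apc, fell by 1.75 (SE 0.39, adjusted p = 0.0104). The Axin2 and Apc2 calls each ended without WT replicate 2 or QKO replicate 2 (adjusted p = 0.0532 to 0.0958). Against QKO, 1 rose and 2 fell in QT7, and 1 rose and 2 fell in QT7L1. Both counts of 3 fell to 0 without QKO replicate 2, the QT7L1 count also without QT7L1 replicate 1, and that of QT7 was 5 without a low-count filter and 1 with only the compared groups in the fit. Cul1, a scaffold of the ubiquitin ligase that acts on beta-catenin, was called higher in QKO than in WT (0.36 ± 0.12, edgeR adjusted p = 0.0451). That call ended with a stricter filter (edgeR adjusted p = 0.0513), with a replicate block (0.0516) and without any 1 of 6 libraries. Against WT, Cul1 was not called in QT7 (-0.23 ± 0.12, edgeR adjusted p = 0.302) or QT7L1 (-0.22 ± 0.12, adjusted p = 0.415). Against QKO, Cul1 fell by 0.59 in QT7 (SE 0.12, edgeR adjusted p = 0.00591) and by 0.58 in QT7L1 (SE 0.12, adjusted p = 0.0061). These calls of Cul1 ended without QKO replicate 2 (edgeR adjusted p = 0.0579 and 0.0608), the latter also without QT7L1 replicate 1 (adjusted p = 0.0568).

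Among 17 other nuclear partners of beta-catenin, 2 rose, 2 fell and 13 did not pass in QKO against WT (median 0.11). Ctnnbip1, also called ICAT, which competes with TCF factors for beta-catenin, was at 23.6 and 27.3 CPM in WT, 17.5 and 15.8 CPM in QKO, 25.4 and 28.7 CPM in QT7 and 25.1 and 26.2 CPM in QT7L1. Both QKO libraries were the lowest. It fell by 0.61 in QKO (SE 0.14, edgeR adjusted p = 0.0114) and rose by 0.70 ± 0.14 in QT7 (adjusted p = 0.00613) and 0.62 ± 0.14 in QT7L1 (adjusted p = 0.0092) against QKO. Without QKO replicate 2 these calls ended (edgeR adjusted p = 0.0961, 0.0646 and 0.0818), the first also without WT replicate 2 (adjusted p = 0.104) and the last without QT7L1 replicate 2 (adjusted p = 0.0621). Ssbp4, of the single-stranded DNA-binding family that joins LDB1 and Pygopus in the Wnt enhanceosome, rose by 0.88 ± 0.11 in QKO (edgeR adjusted p = 0.00114). It was also called above WT in QT7 (0.49 ± 0.11, edgeR adjusted p = 0.0402) and QT7L1 (0.63 ± 0.11, adjusted p = 0.0368). Against QKO it was lower in QT7 (-0.39 ± 0.11, edgeR adjusted p = 0.0276) and not called in QT7L1 (-0.25 ± 0.11, adjusted p = 0.121). The 3 calls in the rescued lines ended without any 1 of 7, 6 and 3 libraries. In QT7 against QKO 2 rose and 2 fell, and in QT7L1 against QKO 1 rose and 4 fell. In QKO against WT the count of 4 called was 1 without WT replicate 2 or QKO replicate 2, and 2 without replicate 1 of either. For QT7 and QKO, the count of 4 became 2 when replicate 1 of QKO was removed and 1 when its replicate 2 was. For QT7L1 and QKO the count of 5 became 0 when replicate 2 of QT7L1 was removed, 1 when replicate 2 of QKO was removed and 2 when replicate 1 of either was removed.

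Of 10 other Groucho relatives and corepressor genes, 3 rose and 7 did not pass in QKO against WT (median 0.17). Those that rose were the histone deacetylase gene Hdac1 (0.53 ± 0.11, edgeR adjusted p = 0.00821), Tle6 (0.89 ± 0.22, adjusted p = 0.0163) and Aes (0.65 ± 0.20, adjusted p = 0.0433), the last a short TLE relative now named Tle5. Hdac1 was the only one called against QKO in the rescued lines, where it fell by 0.68 in QT7 (SE 0.11, edgeR adjusted p = 0.00272) and by 0.54 in QT7L1 (SE 0.11, adjusted p = 0.00653), the latter call ending without QT7L1 replicate 2 (adjusted p = 0.0672). In QKO against WT the Hdac1 call ended without WT replicate 2 or QKO replicate 1 (edgeR adjusted p up to 0.0735). That of Tle6 ended without either WT library or QKO replicate 2 (adjusted p up to 0.142), and that of Aes without either WT library, QKO replicate 1 or either QT7L1 library (adjusted p up to 0.243). The Aes call also ended with a replicate block (edgeR adjusted p = 0.0609) and with only the compared groups in the fit (adjusted p = 0.0621). The count of 3 called was 0 without WT replicate 2 and 1 without QKO replicate 1. Of 5 other catenin and cadherin genes, 1 rose, 1 fell and 3 did not pass in QKO, and the count of 2 called was 0 without either QKO library and 1 without WT replicate 2. Cdh2, the N-cadherin gene, was at 1.48 to 2.07 CPM in the rescued lines and 3.08 to 9.30 CPM in WT and QKO. It was called in QT7 against WT (-2.12 ± 0.37, edgeR adjusted p = 0.0154) and against QKO (-1.22 ± 0.37, adjusted p = 0.0352), but not in QT7L1 against WT (-1.91 ± 0.37, adjusted p = 0.0505) or against QKO (-1.0 ± 0.37, adjusted p = 0.0661). The former call ended without WT replicate 1 or QT7 replicate 1 (edgeR adjusted p up to 0.125) or with only the compared groups in the fit (adjusted p = 0.0691), and the latter without any 1 of the QKO, QT7 or QT7L1 libraries (adjusted p up to 0.174). In QT7L1 against WT 0 genes of this catenin and cadherin list were called. That count was 1 with other size factors, a stricter filter or a replicate block. It was 2 with DESeq2, without a low-count filter or with only the compared groups in the fit. Between QT7 and QT7L1 edgeR called 0 genes of the 4 lists, and DESeq2 called 0. There, 3 destruction complex genes and 0 of the others had an unadjusted edgeR p under 0.05.

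**Figure D4:**
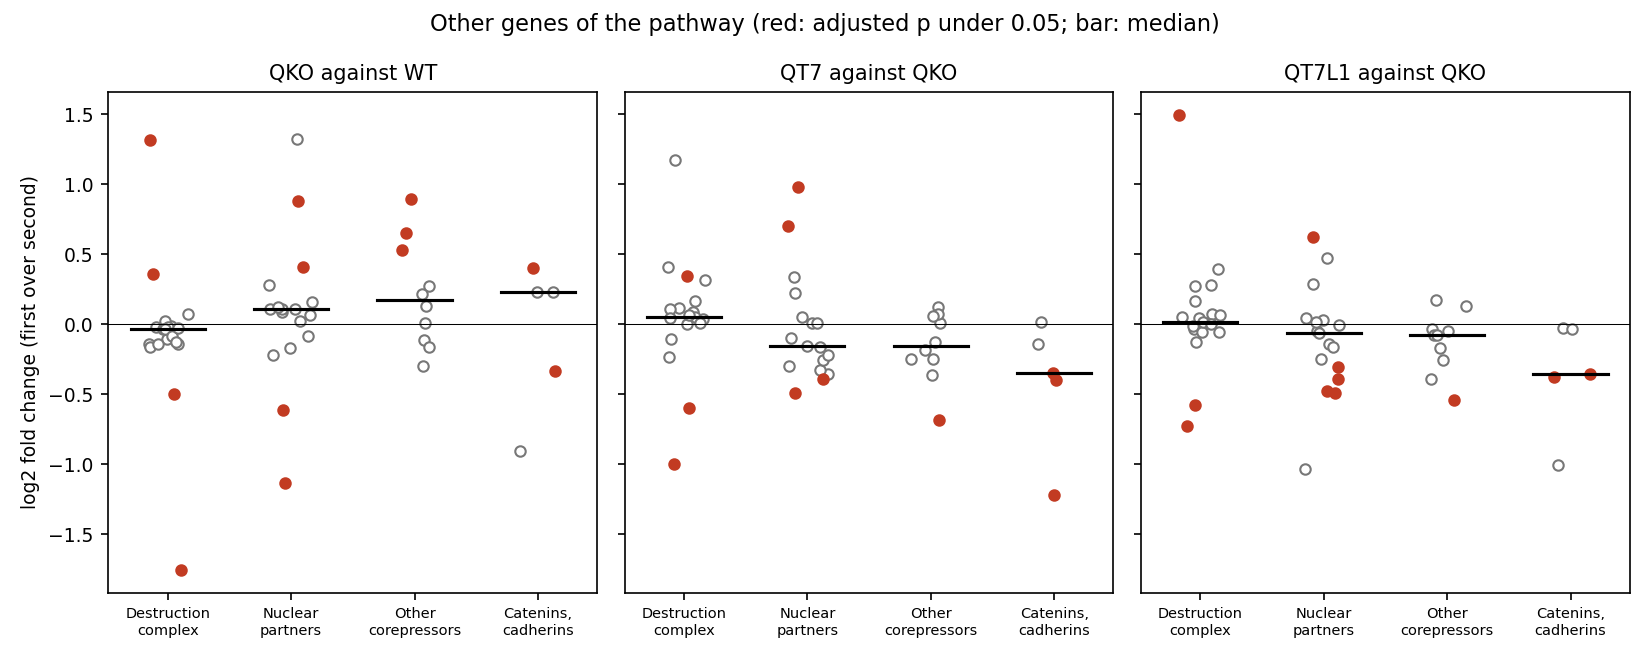
Log2 fold changes (vertical axis, first group over second) of the other pathway genes in the 3 comparisons with QKO; each point is a gene, red where the adjusted p was under 0.05, and bars are list medians. Most points lie near 0, and the called genes of each list lie on both sides in QKO against WT except among corepressors, where the 3 called genes rose.

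Across the 8 libraries, the genes whose log2 CPM most resembled that of Tle4 among 10278 compared were Cnn2 (Pearson r = 0.99), Rest (0.99), Cradd (0.98), Myrf (0.97) and Ppp4r1 (0.97). For Ctnnb1 they were Xrn1 (0.99), Focad (0.99), Exoc2 (0.99), Txndc5 (0.98) and Paqr8 (0.98). These are the highest of many correlations over 8 libraries that share 4 groups, and are given as a description. Among the 9 genes themselves, r between Tle3 and Tle4 was -0.84, between Bcl9 and Pygo1 0.88 and between Ctnnb1 and Pygo1 0.82, the latter pairs sharing their low point in QKO.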

How the data were processed

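RNA was sequenced from 8 libraries, 2 in each of WT, QKO, QT7 and QT7L1, with 250 ng RNA as input to a kit that keeps strand, per the labels' protocols. The submitters' processing notes list bcl2fastq 1.8.4, STAR 2.4.0f1, HTSeq and mm10 (GRCm38). For HTSeq, no source used here gives the strand setting or how multiply placed reads were treated, so reads of overlapping genes may be misassigned. The deposited library files hold whole-number counts per Ensembl gene. The authors' comparison tables hold, per gene, the signal (size-factor-scaled mean over libraries), the log2 fold change and its SE, a score (the log2 fold change over its SE), and each p-value before and after adjustment; DESeq2 is listed as 2.1.8.3. These tables supplied gene symbols and the values named as the authors'.

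Counts were analysed here in R 4.3.3 with edgeR 4.0.16: filterByExpr, TMM scaling, and 1 robust quasi-likelihood fit with a mean per group (4 residual degrees of freedom). Each of the 6 pairs of groups was tested 2-sided, with Benjamini-Hochberg adjustment over all genes. Standard errors are the absolute log2 fold change over the square root of F. The fit was also run on counts simulated from dispersions estimated on these data. Such a run cannot show whether the assumptions of the fit hold for these libraries. Whether replicates came from separate cultures is given for WT only as biological replicates, so p-values measure the spread between these libraries. Correlations used log2 CPM with a prior count of 2. Coordinates and exon lengths came from GENCODE M21, and promoter sequences from RefSeq on GRCm38.p6.

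All 9 genes are named. Up to 4 called genes per pathway list and comparison could be named, as could the 5 genes most like Ctnnb1 and the gene called most often, among genes averaging 2 or more in log2 CPM and carrying no predicted name. The genes and lists were chosen with earlier results of these data known. Alternatives were other size factors, other filters, DESeq2 1.42.0, a replicate block, fits of the compared groups alone, and leaving out each library.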

Additional observations from a re-analysis of the deposited data

How the results depend on the processing

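With 2 libraries a group, counts of calls depended on single libraries. Leaving out 1 library at a time, the number of the 9 genes called was 0 to 2 in QKO against WT (1 with all libraries), 1 to 2 in QT7 against QKO (2), 0 to 3 in QT7L1 against QKO (2), 0 to 1 in QT7 against QT7L1 (0) and 0 to 1 in QT7L1 against WT (1); in QT7 against WT it was 1 throughout. The number over all genes was then 1272 to 5497 (4366 with all libraries), 1432 to 4355 (4449), 1704 to 5971 (4912), 0 to 1564 (1), 0 to 517 (123) and, for QT7 against WT, 52 to 2023 (763). In QKO against WT, 2 of the 9 genes were called with a stricter filter (CPM of at least 1 in 2 libraries) or with only the compared groups in the fit, Bcl9 being the added gene. With only the compared groups 1 was called in QT7 against QKO. Over all genes, DESeq2 called 232 in QT7 against QT7L1, 1304 in QT7 against WT and 575 in QT7L1 against WT; without a low-count filter the numbers were 1030, 2203 and 1248, and with only the compared groups 20, 117 and 614. The stricter filter left 0 in QT7 against QT7L1. The cause was not tested.

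The labels give all groups the replicate numbers 1 and 2, but same-numbered libraries did not deviate together (r from -0.21 to 0.16 over the 6 pairs of groups), so the numbers are not taken as pairs. With a replicate block the calls among the 9 genes were those without it, and over all genes 2 were called in QT7 against QT7L1. Among the pathway genes named with values, the calls of Aes and Cul1 in QKO against WT ended with the block (edgeR adjusted p = 0.0609 and 0.0516).

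Directions turned only in differences that were not called. Pygo2 in QT7 against WT was at -0.0045 with other size factors and -0.0049 with the stricter filter, with DESeq2 and with only the compared groups. Tle1 in QT7 against WT was at 0.0052 without a filter. Tcf7l2 in QKO against WT was at -0.012 with the stricter filter, and between -0.14 and 0.17 over left-out libraries. Leaving out single libraries gave these ranges: in QKO against WT, Tle1 -0.029 to 0.084 and Bcl9l -0.14 to 0.064; in QT7 against QKO, Tle1 -0.093 to 0.024, Tle2 -0.20 to 0.036 and Bcl9l -0.070 to 0.42; in QT7L1 against QKO, Tle1 -0.025 to 0.078. In QT7 against QT7L1 they were -0.029 to 0.057 for Ctnnb1 and -0.038 to 0.17 for Tle3. In QT7 against WT they were -0.063 to 0.053 for Tle1, -0.035 to 0.048 for Pygo2 and -0.096 to 0.39 for Bcl9l. In QT7L1 against WT they were -0.0011 to 0.074 for Ctnnb1, -0.097 to 0.076 for Bcl9 and -0.20 to 0.28 for Pygo1.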
